A study of Mus musculus with 8 samples.

Results

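Of the 6425 open-chromatin peaks measured in mouse kidney tubuloids, 386 had been assigned by the authors to a gene that carried an identifier and a gene type but no symbol. The members were all rows of the deposited table with a filled distance to a transcription start site and an empty gene symbol. They belonged to 372 genes of 18 types, and 368 of them lay at genes of a type other than protein coding. Of the other peaks, 4391 had a gene with a symbol and 1648 had no gene at all. All but 1 of the symbol-bearing peaks were at protein-coding genes, so the comparison of peaks without and with a symbol was nearly one of noncoding with coding genes.

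The assay was ATAC-seq: Tn5, a transposase, cuts DNA that is open and leaves sequencing adapters at the cuts. Tubuloids are small epithelial bodies that dissociated cells of the renal cortex form in Matrigel. All libraries came from primary tubuloids of wildtype mice, labelled as renal tubular epithelial cells. The series compared 4 vehicle libraries with 4 libraries from tubuloids given myoglobin, the haem protein of muscle, to injure the tubule cells, and all were collected at 12 h. The cortices came from 4 mice, for 8 libraries, and no label says which libraries share a mouse, so p-values measure only the spread between these samples. The sources used here give no age of the mice. As bulk cultures, fewer cells with an open site and a site less open in each cell cannot be told apart.

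Noncoding genes give rise to several kinds of RNA. Long intergenic and antisense RNAs are transcribed by RNA polymerase II, often from promoters shared with a coding neighbour, and some of them regulate that neighbour. MicroRNAs are cut from longer transcripts whose promoters can lie far from the hairpin, and each one recognises target messages through its seed. Small nuclear RNAs form the spliceosome, small nucleolar RNAs guide the modification of other RNAs, and both kinds have many dead copies scattered over the genome. A processed pseudogene is a reverse-transcribed copy of a message that usually brought no promoter with it.

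The 34 microRNA peaks belonged to 30 genes, of which 25 had a RefSeq gene with the same span and 23 had mature sequences that were used here. Those 23 genes gave 42 mature sequences with 41 different seeds. The mature forms below belong to the genes on which the microRNA results turn. They come from RefSeq (GRCm38.p6, the assembly behind mm10), run 5′ to 3′, and have the seed (bases 2 to 8) in capitals.
miR-21a-5p: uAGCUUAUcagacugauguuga
miR-210-3p: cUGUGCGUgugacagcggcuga
let-7c-5p: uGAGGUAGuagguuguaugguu
miR-26b-5p: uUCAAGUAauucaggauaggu
miR-10a-5p: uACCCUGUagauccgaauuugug
miR-455-5p: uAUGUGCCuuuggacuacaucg
miR-6962-5p: aAGGACCUggugggagaucu
miR-7028-5p: uGGGCUGAggcuugggucaggag
miR-7662-5p: aGGGCUGAggccuggauccagc
The last pair was the only one with a shared seed, GGGCUGA, and their genes lie on chromosomes 5 and 10.

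Long noncoding genes were shown by promoter instead, where the peak overlapped one. A RefSeq promoter window ran from 250 bases before to 50 after the start of the member's own gene. Only members among the 137 with a RefSeq gene of the same span could have such a window. It lay under the peak, by an overlap of any length, at 40 of these, 30 of them long noncoding and 10 coding. The other members were not searched, so the share over all 386 is not known. The windows below were chosen for a known RNA and for what their letters hold. The capitals, on either strand, mark the CCAAT box, the GC box GGGCGG, the TATA box TATAAA and the cyclic AMP response element TGACGTCA, and no other searched motif was found in them. Chaserr, at chr7:73558346-73558645 on the minus strand, is a long noncoding RNA that holds down its neighbour Chd2, a chromatin remodeller. Hk1os, at chr10:62339984-62340283 on the plus strand, is antisense to the hexokinase gene Hk1. Snhg8, at chr3:123508287-123508586, and Snhg15, at chr11:6528711-6529010, both on the minus strand, host small nucleolar RNAs.
Chaserr: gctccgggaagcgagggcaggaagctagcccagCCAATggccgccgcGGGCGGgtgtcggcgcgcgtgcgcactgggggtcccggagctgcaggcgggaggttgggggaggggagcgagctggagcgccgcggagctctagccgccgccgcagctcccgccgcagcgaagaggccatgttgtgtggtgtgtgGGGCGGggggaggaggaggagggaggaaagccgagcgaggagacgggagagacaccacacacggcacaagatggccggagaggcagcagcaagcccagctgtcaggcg
Hk1os: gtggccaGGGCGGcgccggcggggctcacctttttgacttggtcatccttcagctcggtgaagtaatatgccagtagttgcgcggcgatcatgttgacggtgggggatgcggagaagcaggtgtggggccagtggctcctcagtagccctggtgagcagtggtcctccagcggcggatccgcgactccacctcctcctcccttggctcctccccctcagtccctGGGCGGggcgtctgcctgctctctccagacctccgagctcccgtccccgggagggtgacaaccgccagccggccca
Snhg8: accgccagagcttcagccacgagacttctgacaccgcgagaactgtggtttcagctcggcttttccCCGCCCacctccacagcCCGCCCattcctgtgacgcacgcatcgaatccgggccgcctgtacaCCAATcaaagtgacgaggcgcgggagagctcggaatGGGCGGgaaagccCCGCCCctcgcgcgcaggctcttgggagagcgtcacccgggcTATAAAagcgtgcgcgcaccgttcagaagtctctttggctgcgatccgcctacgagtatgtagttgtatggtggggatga
Snhg15: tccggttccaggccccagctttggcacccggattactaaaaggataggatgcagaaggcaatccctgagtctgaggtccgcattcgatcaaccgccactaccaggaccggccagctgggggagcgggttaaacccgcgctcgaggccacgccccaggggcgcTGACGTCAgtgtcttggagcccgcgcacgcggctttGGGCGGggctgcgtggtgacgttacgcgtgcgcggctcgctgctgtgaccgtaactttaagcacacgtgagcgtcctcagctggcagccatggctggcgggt

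The long noncoding promoters under these peaks were rich in CpG and GC boxes. GGGCGG, the GC box that Sp1-family factors bind, was in 70.0% of the 30 long noncoding windows and in 80.0% of the 10 coding ones. It was in 16.3% of all 11588 long noncoding windows, in 46.2% of all 21262 coding windows, and in 79.4% of the 3111 coding windows under a symbol-bearing peak. The median ratio of observed to expected CpG was 0.732 in the 30 long noncoding windows, against 0.245 over all long noncoding windows and 0.817 over the coding windows under a symbol-bearing peak. TATAAA was in 3.33% of the 30, the window of Snhg8 alone, against 15.5% of all long noncoding windows. It was as rare, at 3.66%, in the coding windows under a symbol-bearing peak. CCAAT, at 33.3%, was near the 36.0% of all long noncoding windows and below the 51.2% of coding windows under a symbol-bearing peak. The windows compared under peaks were by that choice open ones, and the letters are a description, not binding sites.

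The deposited values are reads per peak scaled for depth and rounded to whole numbers, called scaled values here. Library totals ran from 124415 to 126782 after scaling, and estimated reads in peaks from 130568 to 200680 in vehicle and from 67645 to 123453 in myoglobin. Myoglobin replicates 2 and 3 were the shallowest. The members held between 5.28% and 5.85% of the total in every library. Of the marker genes searched by symbol, 2 of 11 for proximal tubule (Cdh16 and Cryl1) and 1 of 8 for the loop, distal tubule and collecting duct (Scnn1g) had a peak, and Lrp2, Cubn and Slc34a1 did not. None of the 3 genes each for endothelium, fibroblasts, immune cells and podocytes had one.

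Peaks without a symbol were slightly lower than those with one and mostly farther from the start site. Their median value over all libraries was 15.5, with quartiles of 9.531 and 22.38, and that of the symbol-bearing peaks was 17.38, with quartiles of 10.75 and 26.88. The ratio of medians was 0.892 over all libraries and ran from 0.824 to 1.0 in single libraries, with the 1.0 in myoglobin replicate 3. The members were also narrower, with a median width of 192.5 bp against 221 bp. Per 100 bp of width, the ratio rose to 0.983, from medians of 7.818 and 7.95. Within 1000 bp of the assigned start the ratio of values was 0.964. Peaks are not replicates, and no test was made of these differences.

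**Figure D1:**
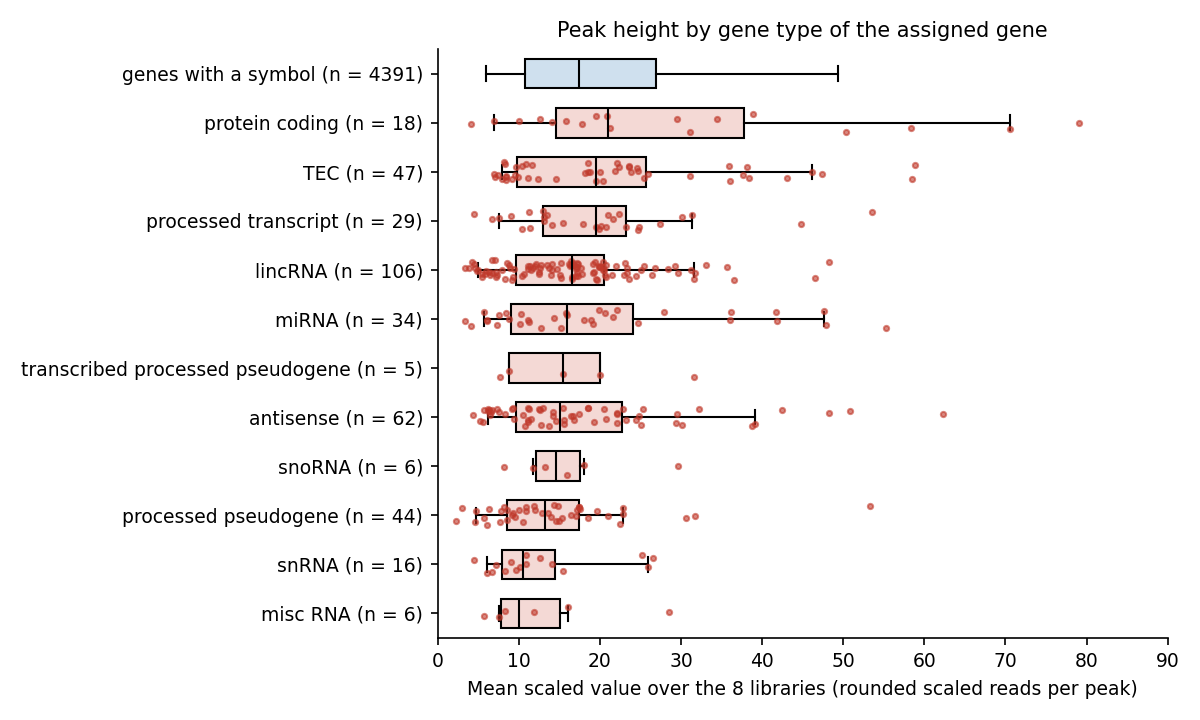
Mean scaled value over the 8 libraries on the x axis for peaks at genes with a symbol (blue) and for each gene type with at least 5 peaks without a symbol (red, 1 point a peak). Boxes show the median and quartiles and whiskers the 5th to 95th percentiles; the medians run from 21.06 at protein-coding genes to 10.06 at misc RNA genes, against 17.38 with a symbol.

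Height differed between gene types, in an order that changed per 100 bp of width. The 18 peaks at protein-coding genes were tallest, with a median of 21.06. The 47 peaks of the TEC class, transcripts still awaiting experimental proof, and the 29 of processed transcripts, which have no open reading frame, both had a median of 19.5. The 106 long intergenic RNA (lincRNA) peaks had 16.56, the 34 microRNA peaks 15.94 and the 62 antisense peaks 15.06. Lower were the 6 small nucleolar RNA (snoRNA) peaks at 14.62, the 44 processed pseudogene peaks at 13.25, the 16 small nuclear RNA (snRNA) peaks at 10.5 and the 6 misc RNA peaks at 10.06. The quartiles of neighbouring types in this order overlapped. Per 100 bp of width, the snRNA peaks had the lowest median of the types with at least 5 peaks, 6.462, and the protein-coding peaks the highest, 8.94. On that scale lincRNA peaks, at 7.399, were below processed pseudogene peaks at 7.661 and snoRNA peaks at 7.876. MicroRNA peaks, at 8.279, were above processed transcript peaks at 7.742.

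Distance to the assigned start separated the classes more than height did. The median distance was 1130 bp for the members and 98 bp for symbol-bearing peaks. Within 1000 bp of the start lay 47.9% of the members and 90.6% of the symbol-bearing peaks, and within 100 bp 15.5% and 51.0%. Among the types, 16 of 18 protein-coding and 24 of 29 processed transcript peaks were within 1000 bp, but 5 of 44 processed pseudogene, 4 of 16 snRNA and 11 of 34 microRNA peaks. The longest distance was 5178 bp. For most snRNA, microRNA and pseudogene members the assigned start thus lay more than 1000 bp from the open site.

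**Figure D2:**
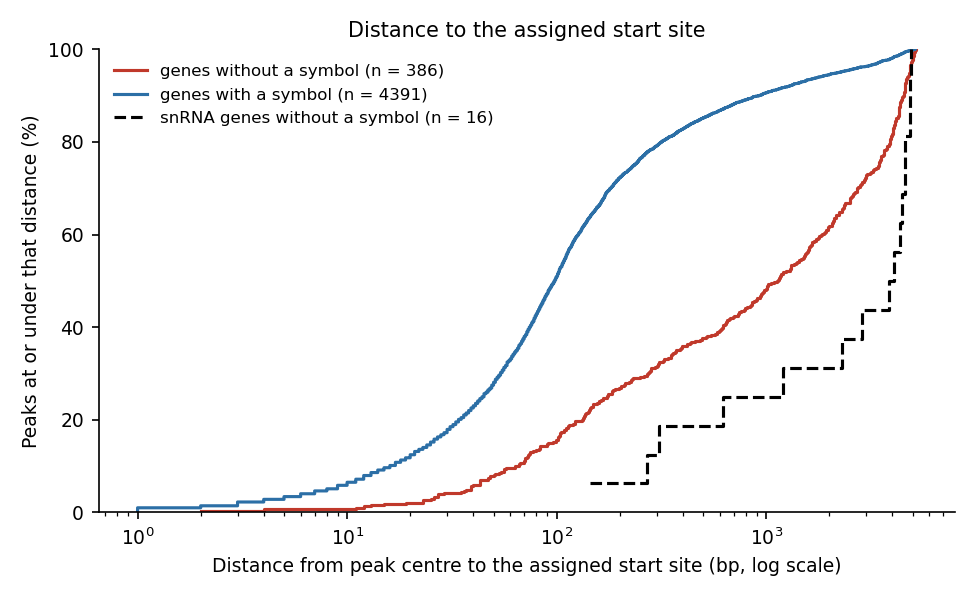
Cumulative share of peaks (y axis, %) by distance from the peak centre to the assigned start site (x axis, bp, log scale, with 0 drawn at 1) for genes without a symbol, genes with one, and snRNA genes. At 1000 bp the first curve stands at 47.9%, the second at 90.6% and the third at 4 of 16 peaks.

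Few members lay at the start of a coding gene. Of the 375 members on chromosomes where coding starts were given, 54 had one within 1000 bp of the peak centre, and 39 of these 54 were at a noncoding type. In 24 of the 39 the coding gene ran on the strand opposite to the assigned gene, and in 15 on the same strand. Their median value was 16.75, against 15.31 for all 368 noncoding-type members. For 22 of the 39 the assigned noncoding start was also within 1000 bp, and their median was 20.12. In 14 of the 22 the strands were opposite, with a median of 21.44. Whether such starts share a promoter was not tested. One of the 22 was the Hk1os peak, at chr10:62340136-62340577, whose centre lay 101 bp from the Hk1os start and 64.5 bp from that of Hk1. Counted without strand or distance, 156 of the 368 lay inside the span of a coding gene. In 36 of all members a coding start was nearer than the assigned one.

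The tallest members were at coding genes without a symbol. The first, 77 bp from the assigned start at chr2:30981900-30982347, lay in the span of BC005624, 155.5 bp from the start of the deubiquitinase gene Usp20. Its values were 67, 73, 80 and 83 in vehicle and 74, 109, 71 and 75 in myoglobin, a log2(value + 1) difference of 0.10 with an SE of 0.126. The groups overlapped, with 1 myoglobin library far above the rest. Txnrd3, a thioredoxin and glutathione reductase, had the next, 641 bp from its start at chr6:89644384-89644873, with 73, 80, 87 and 72 in vehicle and 65, 63, 65 and 59 in myoglobin. Every myoglobin library was below every vehicle library at Txnrd3, by 0.30 on the log2 scale, but the peak did not pass the test (limma, adjusted p = 0.575).

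At noncoding genes, no tall peak was called, against a background of 0.249% of all peaks. An antisense gene inside Gramd1b, which encodes a cholesterol transfer protein, had 64, 69, 74 and 63 in vehicle and 61, 57, 62 and 48 in myoglobin at chr9:40321240-40321673. Every myoglobin library was below every vehicle library there, by 0.24 on the log2 scale (limma, adjusted p = 0.689). A TEC gene inside Mesd, a chaperone of LDL receptors, had 56, 55, 51 and 70 in vehicle and 49, 54, 78 and 58 in myoglobin. Chaserr had 40, 45, 47 and 45 in vehicle and 48, 44, 43 and 46 in myoglobin, a difference of 0.03 with an SE of 0.155. Its 8 libraries lay within a range of 40 to 48. The lincRNA A230028O05Rik had a mean of 46.5 and a difference of -0.06 with an SE of 0.16. Malat1, an abundant nuclear RNA, had a peak 1007 bp from its start with a mean of 20 and a difference of -0.09, and the peaks at Snhg8 and Snhg15 had means of 24.75 and 14.125 and differences of 0.07 and 0.29. These 3 were all that a search by 44 gene names gave, and none of the 3 had an unadjusted p under 0.05. The names were of known noncoding genes, apart from 1600014C10Rik, which RefSeq lists as coding. Of the members, only the 137 with a RefSeq gene of the same span could be found by name, so an absence here says little.

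Myoglobin and vehicle differed little over the members as a set. The median log2(value + 1) difference, myoglobin minus vehicle, was 0.020 over the members, -0.013 over symbol-bearing peaks and -0.021 over all peaks. The spread was wider at the members, with a median absolute difference of 0.214 against 0.182. In the limma fit over all peaks, 1 member was called higher and 1 lower at an adjusted p under 0.05, against a background of 0.249% of all peaks (0.202% higher and 0.0467% lower). At an unadjusted p under 0.05 there were 38 members, or 9.84%, with 16 higher and 22 lower, against a background of 7.6%. The share was 6.79% of symbol-bearing peaks and 9.22% of peaks with no gene. The groups did not overlap at 4 members that were higher and 8 that were lower with myoglobin, 12 of 386 in all. The background was 3.04% in either direction, 1.45% higher and 1.59% lower, close to the members' share.

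**Figure D3:**
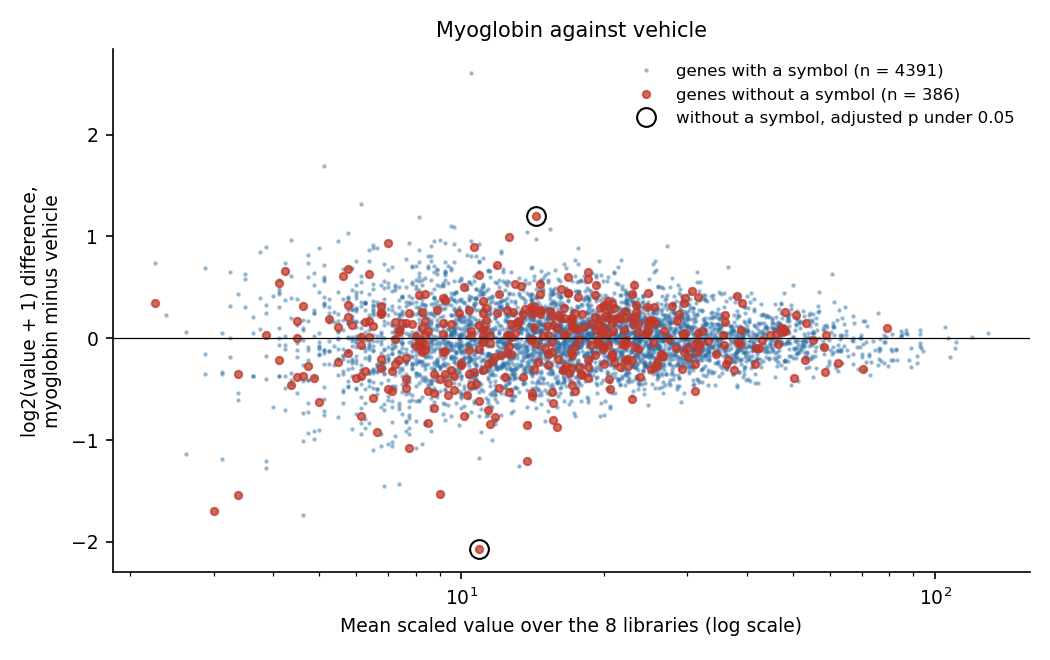
log2(value + 1) difference, myoglobin minus vehicle (y axis), against the mean scaled value over the 8 libraries (x axis, log scale) for peaks at genes with a symbol (blue) and without one (red). The 2 circled members, at 1.20 and -2.07, had an adjusted p under 0.05, and the other members scatter around 0 with the symbol-bearing peaks.

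The wider spread of the members was seen at matched height in peaks of middle and high value. At means of 10 to 20 the median absolute difference was 0.243 over 158 members and 0.202 over 1627 symbol-bearing peaks. At means of 20 or more it was 0.172 and 0.142, and under 10 it was 0.265 and 0.275. The peaks with no gene had 0.286, 0.228 and 0.167 from the lowest to the highest of these ranges. Within 100 bp of the assigned start the spread was not wider, with 0.17 over 60 members and 0.184 over 2240 symbol-bearing peaks. From 100 to 1000 bp the values were 0.206 and 0.177, and beyond 1000 bp 0.244 and 0.201.

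Among the snRNA genes 1 peak was called, and it was lower with myoglobin. It lay at chr7:38175986-38176110, with its centre 623 bp from the start of a 58-bp snRNA gene. RefSeq lists a gene of the same span, Gm22203, as a pseudogene, and the nearest coding gene, 1600014C10Rik, was 7107 bp away. Its values were 22, 12, 21 and 14 in vehicle and 4, 0, 7 and 7 in myoglobin. All 4 myoglobin libraries were below all 4 vehicle libraries, and the deepest of the vehicle libraries, replicate 2, was the lowest of its group. The values correspond to about 89 reads in vehicle and 15 in the less deeply sequenced myoglobin libraries. The fall was 2.07 on the log2(value + 1) scale, with an SE of 0.413 and a limma adjusted p of 0.00281. Without myoglobin replicate 2, which was at 0, the difference was smaller, -1.37, with a limma adjusted p of 0.033. Without vehicle replicate 1 or 3, the adjusted p was 0.115 or 0.0696, and without both shallowest libraries the difference was -1.49 with an adjusted p of 0.00991.

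The nearest other peak on that chromosome was also a member, and its values were lower in myoglobin without passing the test. It was assigned to an antisense gene 4652 bp away, at chr7:38201027-38201191, 25061 bp from the snRNA peak, and no other peak lay within 50 kb. Its values were 27, 11, 22 and 17 in vehicle and 10, 3, 13 and 7 in myoglobin. The groups overlapped at 11 in vehicle replicate 2 and 13 in myoglobin replicate 3. The difference was -1.21 with an SE of 0.322 and a limma adjusted p of 0.0979.

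The other snRNA peaks showed no common direction. A peak assigned to an snRNA gene 4836 bp away lay 47 bp from the start of Lcmt1, which methylates protein phosphatase 2A. Its values were 13, 13, 9 and 14 in vehicle and 3, 6, 0 and 14 in myoglobin, a difference of -1.53 with an SE of 0.446 and a limma adjusted p of 0.185. Myoglobin replicate 4 equalled the highest vehicle library, and without it the adjusted p was 0.0248. Without myoglobin replicate 3, which was at 0, the difference was -0.81 (adjusted p = 0.476), and without both shallowest libraries it was -0.76 (adjusted p = 0.567). At Sh3bp2, a signalling adaptor, a peak 4611 bp from the snRNA gene Gm22847 had a difference of 1.00. Rnu2-10, a gene of the U2 RNA of the spliceosome, had a peak 269 bp from its start with a mean of 9.625 and a difference of -0.51. Of all 16 snRNA peaks, 6 had a difference above 0, the median was -0.145, and 3 lower and 1 higher had an unadjusted p under 0.05 against a background of 3.92% and 3.67%.

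Genes of snRNA transcription and packaging, with factors of RNA polymerase III initiation, were searched by symbol. Of 44 such genes, 15 had a peak, among them Snapc3 and Snapc5 of the snRNA activating complex, and the integrator subunits Ints3, Ints6 and Ints9. None was called and 1 had an unadjusted p under 0.05 (Pou2f1, the octamer-binding factor Oct-1, at 0.62), against backgrounds of 0.249% and 7.6%. The median difference was 0.01 in a range of -0.28 to 0.67.

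The only member called higher was assigned to a processed pseudogene. It lay at chr8:75083896-75084066, with its centre 4840 bp from the start of the pseudogene. Hmox1, which encodes the haem-degrading enzyme haem oxygenase 1, was the nearest coding gene at 9552 bp. Its values were 9, 6, 8 and 10 in vehicle and 24, 20, 13 and 25 in myoglobin. Every myoglobin library was above every vehicle library, and the lowest of them was the shallowest, replicate 3. The values correspond to about 44 reads in vehicle and 68 in the less deeply sequenced myoglobin libraries. The rise was 1.20 on the log2(value + 1) scale, with an SE of 0.292 and a limma adjusted p of 0.0429. Leaving out any 1 library other than myoglobin replicate 3 gave an adjusted p between 0.0645 and 0.236. The peak assigned to Hmox1 itself, 9706 bp away, had a mean of 7.5 in both groups.

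The other processed pseudogene peaks gave values on both sides of 0. The tallest, 25660 bp from Elf3, an epithelial transcription factor, had 58, 56, 67 and 48 in vehicle and 60, 46, 47 and 44 in myoglobin. The pseudogene peak on the Capza3 side had 10, 3, 4 and 3 in vehicle and 1, 3, 0 and 0 in myoglobin, a difference of -1.70 with an SE of 0.652 that did not pass the adjustment (limma, adjusted p = 0.551). Of the 44, 25 had a difference above 0, and 4 higher and 2 lower had an unadjusted p under 0.05, against a background of 3.67% and 3.92%. The transcribed pseudogene H2-K2, of the class I histocompatibility family, had 12, 14, 10 and 13 in vehicle and 14, 17, 22 and 15 in myoglobin. Reads from near-identical copies make pseudogene values uncertain, and the treatment of such reads is not given in the sources used here.

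**Figure D4:**
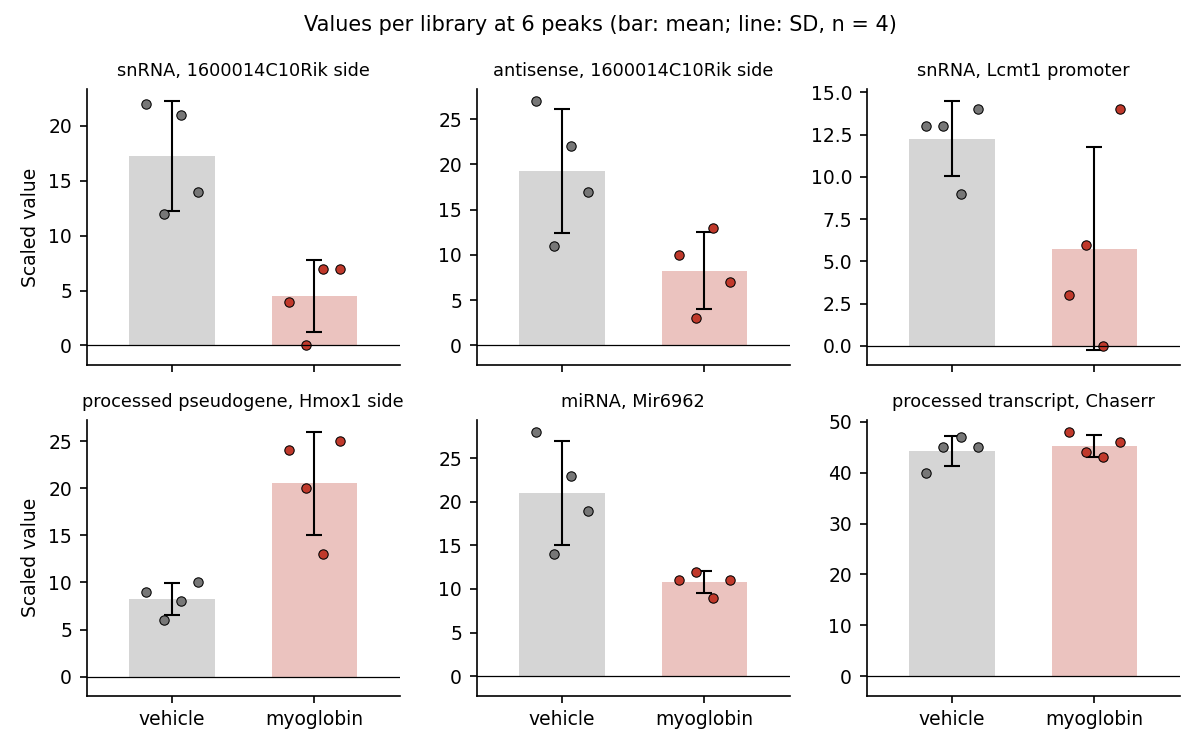
Scaled value (y axis) in each library at 6 members, grouped as vehicle (grey) and myoglobin (red), with bars for the mean and lines for the SD (n = 4 each). The groups do not overlap at the snRNA peak on the 1600014C10Rik side, the pseudogene peak on the Hmox1 side and the Mir6962 peak, and they coincide at Chaserr.

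At microRNA genes no peak was called, against a background of 0.249% of all peaks, so a lack of calls says little here. Mir21a, whose product is among the most induced microRNAs of the injured kidney, had 2 peaks on opposite sides of the hairpin, 6531 bp apart. The taller one, at chr11:86586864-86587442 inside Vmp1 and 2995 bp from the start, had 55, 51, 60 and 56 in vehicle and 45, 58, 60 and 57 in myoglobin. Its difference was -0.02 with an SE of 0.142. The other Mir21a peak, 3536 bp from the start, had 23, 30, 34 and 14 in vehicle and 25, 37, 26 and 34 in myoglobin, a difference of 0.31 with an SE of 0.213. At both peaks the groups overlapped.

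Mir210, the microRNA that hypoxia-inducible factor turns on, had a peak 435 bp from its start at chr7:141221748-141222108. Its values were 39, 37, 51 and 43 in vehicle and 46, 49, 22 and 48 in myoglobin, so that only the shallowest library lay below the vehicle range. The difference was -0.10, and 0.17 without that library. Mirlet7c-2, of the let-7 family, had a peak 4019 bp away with means of 39.25 ± 3.86 in vehicle and 33.0 ± 5.10 in myoglobin (SD, n = 4 each). Mir26b had 23.75 ± 3.59 and 19.5 ± 4.51 (SD, n = 4 each), and Mir10a, in the HoxB cluster, had 5.75 in both groups. All 3 differences had an unadjusted p above 0.05.

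The smallest p of a microRNA peak was at Mir6962, inside the activin receptor gene Acvr1b. The peak, at chr15:101198359-101198550 and 4586 bp from the start of Mir6962, had 28, 14, 23 and 19 in vehicle and 11, 12, 9 and 11 in myoglobin. The groups did not overlap. The difference was -0.87 with an SE of 0.271 and did not pass the adjustment (limma, adjusted p = 0.266). Mir455, inside the collagen gene Col27a1, had the lowest microRNA peak, with 5, 2, 8 and 7 in vehicle and 1, 0, 2 and 2 in myoglobin, and an adjusted p of 0.551 in the same fit. The pair with a shared seed gave differences of 0.50 at Mir7028 and of -0.21 and -0.49 at the 2 peaks of Mir7662. Over all 34 microRNA peaks, 15 had a difference above 0, the median was -0.064, and 1 higher and 3 lower had an unadjusted p under 0.05, against a background of 3.67% and 3.92%.

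Among lincRNA and antisense genes, the 2 largest classes, no peak was called. The background was 0.249% of all peaks, a share at which a lack of calls says little about these classes. The lincRNA with the smallest p lay 86303 bp from Inhbb, which encodes an activin subunit, at chr1:119328975-119329160, with its centre 132 bp from the lincRNA start. It had 14, 17, 17 and 24 in vehicle and 11, 11, 9 and 7 in myoglobin. The groups did not overlap, and the difference of -0.85 had an SE of 0.288 and a limma adjusted p of 0.37. Gm13056 had 12, 24, 17 and 23 in vehicle and 28, 24, 35 and 22 in myoglobin, a difference of 0.52. Of the 106 lincRNA peaks, 54 had a difference above 0 and 3 had an unadjusted p under 0.05, or 2.83% against the background of 7.6%.

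The antisense Hk1os peak had 34, 37, 34 and 31 in vehicle and 41, 35, 58 and 43 in myoglobin. Its difference was 0.35 with an SE of 0.171, and it did not pass the adjustment (limma, adjusted p = 0.635). AI463170, inside Plekhg3, had 22, 8, 14 and 16 in vehicle and 7, 8, 13 and 4 in myoglobin, a difference of -0.85. Of the 62 antisense peaks, 29 had a difference above 0, and 3 higher and 4 lower had an unadjusted p under 0.05, against a background of 3.67% and 3.92%. Antisense genes share their DNA with the gene they face, and ATAC-seq reads do not tell the strands apart.

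Among the 47 TEC peaks, 2 higher and 1 lower had groups that did not overlap, against a background of 1.45% and 1.59%. One of the higher, 2 bp from the start of a TEC gene inside Plxna1, a semaphorin receptor, had 15, 10, 16 and 16 in vehicle and 23, 23, 26 and 19 in myoglobin. The lower, 8521 bp from Slc2a3, the glucose transporter GLUT3, had 64, 67, 60 and 70 in vehicle and 56, 49, 54 and 48 in myoglobin. Their differences of 0.65 and -0.33 had limma adjusted p values of 0.551 and 0.575. The other higher one, inside Marchf8, which encodes a ubiquitin ligase, had 5, 6, 3 and 4 in vehicle and 8, 8, 9 and 13 in myoglobin (limma, adjusted p = 0.575). Among processed transcripts the smallest p was at a gene 5 bp from Ifi30, a lysosomal thiol reductase, with 11, 19, 11 and 16 in vehicle and 11, 11, 7 and 5 in myoglobin.

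Small nucleolar RNA genes had 6 peaks and none was called, against a background of 0.249% of all peaks. Gm26272 had the tallest, with 20, 23, 31 and 28 in vehicle and 36, 41, 28 and 30 in myoglobin, a difference of 0.39. Snord104, which guides a ribosomal RNA methylation, had 14, 16, 17 and 12 in vehicle and 10, 8, 13 and 4 in myoglobin, a difference of -0.78. Rnu3b1, a gene of the U3 RNA that ribosomal RNA processing needs, had a mean of 18 and a difference of 0.24.

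Where a gene had more than 1 member, the signs of its peaks agreed at some genes and not at others. Of the 14 genes with 2 peaks, both peaks had the same sign at 7. Some of these differences were near 0, such as -0.1 and 0.09 at 6030440G07Rik, where a sign says little. Whether the peaks of a gene change together was not tested. At Txnrd3 the differences were -0.30 and -0.25 in peaks of very unequal height, with means of 70.5 and 10. At Mir6386 they were 0.43 and -0.76 in peaks 396 bp apart.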

How the data were processed

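ATAC-seq peak values were analysed in 4 vehicle and 4 myoglobin libraries, grouped by the labels. Per the submitters' processing notes, build mm10 was used with STAR 2.7.10a, DESeq2 1.36.0, featureCounts, Trimmomatic 0.39 and Picard 3.0.0; the sources used here give neither their roles nor the peak caller or any Tn5 shift. The deposited values are a score: reads scaled per library by the authors and rounded to whole numbers, as regular steps in each column show. Scaling factors were estimated from those steps, so read numbers are estimates. Because the values are not counts, count tests were not run.

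limma 3.58.1 in R 4.3.3 was fitted to log2(value + 1) over all 6425 peaks with a variance trend, treatment as the only term and Benjamini-Hochberg adjustment (threshold 0.05), after a check on simulated data. The pseudocount understates changes of low peaks.

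RefSeq names were taken at 90% reciprocal span overlap with compatible type and strand (137 of 386 peaks). That table holds gene spans without exons. Promoter windows of chromosome 18 were not used here. Motifs searched on both strands were the TATA box TATAAA, the CCAAT box, the GC box GGGCGG, the ETS site CCGGAAGT, the cyclic AMP element TGACGTCA, the palindromic NRF1 site, the YY1 site AAGATGGCG and the AP-1 site TGANTCA.

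The members and lists were chosen with earlier results of these data known. Named peaks were those called, and in each type with at least 5 members the 2 tallest, the 2 of smallest p and the lowest; in smaller types, the tallest. Mir210, Mirlet7c-2, Mir26b, Mir10a, the Mir21a and Mir7662 pairs, Mir7028, Mir6386, Hk1os, Rnu2-10, the peak at Sh3bp2 and the second Txnrd3 peak were added after their values were seen, and Malat1, Snhg8 and Snhg15 came from a gene list. Alternatives were other scalings, pseudocounts of 0.1 and 5, a mean of at least 10, the replicate block, library weights and each library left out. Whether the replicate numbers pair the libraries by mouse is not known.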

Additional observations from a re-analysis of the deposited data

Results flagged for a closer look

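In 146 sets of 4 values (73 peaks described, in each group), 10 had a library set apart from the other 3. The gap to its nearest neighbour was above Dixon's 95% limit, which would give about 7.3 sets for continuous, normally distributed values. That number is only a guide. The values are whole numbers, so tied libraries let a gap such as 10 against 11 pass, and some peaks were chosen for a small p. At the tallest member, at BC005624, myoglobin replicate 2 had 109 and the others 71 to 75. At the coding gene 4930579G24Rik, vehicle replicate 1 had 62 and the others 54 to 55. At the TEC gene inside Plxna1, vehicle replicate 2 had 10 and the others 15 to 16. On the Capza3 side, vehicle replicate 1 had 10 at the pseudogene peak and the others 3 to 4. At the misc RNA gene on the Agpat3 side, vehicle replicate 2 had 12 and the others 10. At the immunoglobulin pseudogene, myoglobin replicate 1 had 10 and the others 11. At the snRNA gene Gm22502, 44.5 bp from the start of Dido1, myoglobin replicate 3 had 6 and the others 3. At Mir210, myoglobin replicate 3 had 22 and the others 46 to 49. At the Mir7662 peak nearer the hairpin, vehicle replicate 2 had 19 and the others 25 to 26. At Rnu2-10, myoglobin replicate 3 had 15 and the others 5 to 6.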

How the results depend on the processing

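Of the 2 members called, both were also called under other scalings, a filter on the mean and without both shallowest libraries (chosen after seeing the data). A pseudocount of 0.1 left 0 called (limma, 38 at an unadjusted p under 0.05). A pseudocount of 5 and library weights gave 3, adding the antisense peak on the 1600014C10Rik side. The replicate block gave 1, with the Hmox1-side peak at a limma adjusted p of 0.0725. Same-numbered libraries correlated between -0.013 and 0.026, and the other pairs of a vehicle and a myoglobin library between -0.062 and 0.039. No pair stood out, so these correlations cannot tell whether the numbers pair the libraries by mouse. Leaving out single libraries gave 0 to 3 calls, with 0 (27 and 28 at an unadjusted p under 0.05) without vehicle replicate 1 or 3 and 3 without myoglobin replicate 3. The snRNA peak was called in 13 of 16 alternatives, between -2.98 and -1.28, and the Hmox1-side peak in 7 of 16, between 0.926 and 1.48.

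The median difference of the members lay between -0.015 and 0.036 when single libraries were left out, and that of symbol-bearing peaks was 0.007 without both shallowest libraries, so neither has a settled sign. The Malat1 peak went from -0.09 to 0.30 without both shallowest libraries. The height ratio of 0.892 became 0.983 per 100 bp of width and 0.964 within 1000 bp of the start, 0.867 without peaks near a coding start, and 0.873 to 0.901 without single libraries. Shallow libraries limit the low peaks: at the snRNA peak on the 1600014C10Rik side, the myoglobin values rest on about 15 reads.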
